A study of Homo sapiens with 16 samples.

Results

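Expression of 7 cytochrome P450 genes, CYP4F2, CYP4F3, CYP4F11, CYP4F12, CYP24A1, CYP1A1 and CYP1B1, was examined in 2 human colorectal cancer cell lines after treatment with curcumin or andrographis. The genes were taken by symbol as protein-coding rows, 7 of 60560 rows in each of 2 expression tables. CYP4F3, CYP4F11 and CYP24A1 were chosen by their large changes in HCT116 cells, so their values in any contrast that holds HCT116 libraries are given as a description with no test. The other 4 were added as relatives and were tested wherever they were measured well enough.

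RNA sequencing was done in 2 separate experiments, each with 8 libraries and 2 libraries per group. In the curcumin experiment the groups were HCT116 cells with curcumin, their HCT116 non-treated controls, SW480 cells with curcumin and their SW480 non-treated controls. The andrographis experiment had HCT116 cells with andrographis, HCT116 non-treated controls, SW480 cells with andrographis and SW480 non-treated controls. Treatment lasted 16 h, and both lines were derived from human colon carcinomas. Curcumin was a curcuminoid complex of turmeric with its essential oils, and andrographis was a leaf extract standardised for the diterpene andrographolide, so neither was a single pure molecule. Both were dissolved in dimethyl sulfoxide. The study's results give combination doses, lower for HCT116 than for SW480 cells, as those of all later experiments, while its sequencing methods state no dose. The line and the dose therefore cannot be told apart. The andrographis table marks its libraries by letter. A was taken for andrographis and D, by elimination, for control, and the direction of every andrographis difference rests on that reading. Whether the 2 libraries within a group had separate cultures as their source is not stated, and the p-values then measure only the spread between them, which may be technical.

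Cytochrome P450 enzymes are haem proteins that insert 1 oxygen atom into lipids, vitamins, hormones and foreign chemicals, using electrons handed on by reductases. The CYP4F family hydroxylates the far end of fatty acid chains. CYP4F3 inactivates leukotriene B4, the chemoattractant of neutrophils, and CYP4F2 oxidises arachidonic acid and the side chains of vitamins E and K. CYP4F11 acts on long-chain fatty acids, vitamin K and several drugs, and CYP4F12 is a gut and liver form that oxidises antihistamines. CYP24A1, in the mitochondrion, degrades the active hormone form of vitamin D and is a classical target of the vitamin D receptor. CYP1A1 and CYP1B1 oxidise polycyclic aromatic hydrocarbons and oestrogens, and both are classical targets of the aryl hydrocarbon receptor.

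Levels are given as FPKM, reads scaled by gene length and by sequencing depth. The deposited values are log2(FPKM + 1), and the unit was inferred from the values. Depth ran from 9.4 to 23.11 megareads per library in the curcumin experiment and from 15.69 to 32.27 megareads in the andrographis experiment. The 2 tables differed in kind. Mitochondrial RNA took 35.8 to 41.8% of the summed FPKM in the curcumin libraries and 0.0 to 0.1% in the andrographis libraries, and 13270 to 15039 against 10792 to 11826 genes reached 1 FPKM. No level was therefore compared between the experiments. Of 8 colon epithelial markers, 6 were at or above 1 FPKM in every group (EPCAM, CDH1, KRT8, KRT18, KRT19 and CDX2), while KRT20 was listed at 0 in all of them. In bulk RNA, fewer cells of a kind and less RNA per cell cannot be told apart.

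The CYP4F genes lie side by side on chromosome 19, in the order CYP4F22, CYP4F8, CYP4F3, CYP4F12, CYP4F2 and CYP4F11, within chr19:15508525-15934867 of GRCh38.p14. This stretch of 426 kb holds 24 annotated genes, among them 6 protein-coding CYP4F genes and 4 CYP4F pseudogenes. CYP4F3 occupies chr19:15640897-15662825, CYP4F12 chr19:15673087-15697174, CYP4F2 chr19:15878023-15898074 and CYP4F11 chr19:15912377-15934867. CYP24A1 lies at chr20:54143538-54173986, CYP1A1 at chr15:74719542-74725528 and CYP1B1 at chr2:38067509-38076151. RefSeq promoter windows, 250 bases before to 50 bases after a transcription start, were found for 4 of the 7 genes, with 2 starts 338 bases apart for CYP4F11. The CYP4F windows are shown because CYP4F3 and CYP4F11 were the pair with the large andrographis differences, while CYP4F2 was not.
CYP4F3 window (chr19:15641062-15641361, plus strand): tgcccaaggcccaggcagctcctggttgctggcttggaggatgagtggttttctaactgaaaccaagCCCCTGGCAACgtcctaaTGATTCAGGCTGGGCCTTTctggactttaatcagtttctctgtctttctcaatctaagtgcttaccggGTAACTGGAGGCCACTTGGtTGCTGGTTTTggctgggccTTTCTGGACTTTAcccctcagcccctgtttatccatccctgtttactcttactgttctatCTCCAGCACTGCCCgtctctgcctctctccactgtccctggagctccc
CYP4F11 inner window (chr19:15934480-15934779, minus strand): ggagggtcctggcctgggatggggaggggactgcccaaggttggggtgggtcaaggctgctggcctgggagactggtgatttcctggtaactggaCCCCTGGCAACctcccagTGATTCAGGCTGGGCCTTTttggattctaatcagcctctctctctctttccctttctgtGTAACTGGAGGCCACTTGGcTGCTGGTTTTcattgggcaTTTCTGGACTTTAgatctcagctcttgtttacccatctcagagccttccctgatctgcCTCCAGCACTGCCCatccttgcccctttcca
CYP4F11 outer window (chr19:15934818-15935117, minus strand): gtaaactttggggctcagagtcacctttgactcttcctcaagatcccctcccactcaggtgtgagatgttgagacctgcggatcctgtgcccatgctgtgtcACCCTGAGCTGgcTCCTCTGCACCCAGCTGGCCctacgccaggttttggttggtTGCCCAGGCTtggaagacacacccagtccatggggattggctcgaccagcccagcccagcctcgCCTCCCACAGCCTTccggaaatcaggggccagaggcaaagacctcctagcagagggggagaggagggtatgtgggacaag
CYP4F2 window (chr19:15898025-15898324, minus strand): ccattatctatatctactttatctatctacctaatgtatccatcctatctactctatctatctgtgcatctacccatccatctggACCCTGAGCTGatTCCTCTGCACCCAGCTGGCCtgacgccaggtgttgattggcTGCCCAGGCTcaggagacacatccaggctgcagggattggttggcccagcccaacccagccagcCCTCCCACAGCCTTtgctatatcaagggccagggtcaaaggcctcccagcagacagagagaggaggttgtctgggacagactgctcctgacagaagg
Capitals mark runs of at least 10 bases shared within a pair of aligned windows. The CYP4F11 inner window aligned with the CYP4F3 window at 210 identical positions of 288 (72.9%). The CYP4F11 outer window aligned instead with the CYP4F2 window, at 159 of 198 positions (80.3%). The best alignment between the CYP4F2 and CYP4F3 windows covered only 20 positions, 17 of them identical. The tables hold 1 value per gene, so which CYP4F11 start was in use was not measured.

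The windows were searched on both strands for short motifs, whose share among 35116 RefSeq windows of 300 bases is given as the background. TGACNNNGC, the core of the antioxidant response element, was found in the CYP4F11 outer window as TGACACAGC on the reverse strand, beginning 156 bases before the start, and in none of the other 4 windows. It occurs in 13.3% of all windows. GCGTG, the core of the xenobiotic response element bound by the aryl hydrocarbon receptor, was found in the CYP1A1 window 57 bases before the start and in none of the CYP4F windows. It occurs in 36.5% of all windows. Of the nuclear receptor half-sites, AGGTCA (13.8% of windows) and AGTTCA (10.4%) were in none of the 5 windows. GGGTCA (14.1%) was in the CYP4F2 window at 16 bases and in the CYP4F11 inner window at 203 bases before the start, and GGTTCA (8.62%) was in the CYP1A1 window at 104 bases. A match is a description of these letters only.

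Andrographis-treated HCT116 cells held far more CYP4F3 and CYP4F11 RNA than their controls. CYP4F3 was at 15.8 and 15.4 FPKM in andrographis-treated HCT116 cells, against 0.567 and 0.668 FPKM in HCT116 controls. CYP4F11 was at 54.2 and 53.3 FPKM in andrographis-treated HCT116 cells, against 4.75 and 4.97 FPKM in the controls. In both genes the treated and control libraries were far apart and the 2 libraries of each group were close together. The ratio of mean FPKM was 25.2 for CYP4F3 and 11.1 for CYP4F11, and the differences of mean log2(FPKM + 1) were 3.36 (SE 0.14) and 3.23 (SE 0.17). These are the values that chose both genes and carry no test.

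In SW480 cells, whose libraries were not used to choose the genes, CYP4F3 and CYP4F11 rose as well. CYP4F3 was at 1.45 and 2.18 FPKM in andrographis-treated SW480 cells, against 0.0293 and 0.0506 FPKM in SW480 controls. The difference was 1.43 on the log2(FPKM + 1) scale (SE 0.14, limma adjusted p = 0.00578), which understates the change of a gene this low. CYP4F11 was at 0.704 and 1.42 FPKM in andrographis-treated SW480 cells, against 0.0535 and 0.0231 FPKM in SW480 controls, a difference of 0.97 (SE 0.17, adjusted p = 0.0246). Treated and control libraries did not overlap for either gene, and the share of all genes without overlap was not counted. Of the 6 genes tested here 2 were called, CYP4F3 and CYP4F11, where 7.28% of all 12811 genes tested were called. CYP4F11 passed the filter of 1 FPKM in at least 2 libraries through HCT116 cells, reaching 1 FPKM in only 1 SW480 library. CYP4F3 passed it only through treated libraries, so 2 of 6 against that share is no support for a change of these genes as a group. Its call held in all 17 alternatives, with adjusted p between 0.00132 and 0.0457.

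The CYP4F11 call in SW480 cells was less firm. It was lost without SW480 control replicate 1 or 2. It was also lost without HCT116 andrographis replicate 1 or 2 or HCT116 control replicate 1 or 2, which enter only through the shared spread and the filter. The call did not hold with no filter (adjusted p = 0.0626) or with a pseudocount of 10 (0.151). With the 4 SW480 libraries alone CYP4F11 failed the filter and was not tested.

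The reads behind these levels were few in SW480 controls. FPKM values of all 7 genes were whole multiples of 1 read in every library, which gave 398 CYP4F3 reads in the andrographis-treated SW480 libraries together and 12 in the SW480 controls. The rate of reads per depth was 40.4 times higher in treated than in control cells (95% exact interval 22.8 to 78.8, counting error only). CYP4F11 had 164 reads in treated SW480 cells and 7 in SW480 controls, a ratio of 28.5 (13.5 to 72.0). In HCT116 cells the counts were 4776 and 145 reads for CYP4F3, treated and control, with a ratio of 25.4. For CYP4F11 they were 12015 and 836, with a ratio of 11.1. No interval is given for these HCT116 ratios, since HCT116 values chose the genes. CYP4F genes resemble each other closely, and how reads that match several of them were handled is not given in the sources used here, so the split of reads between them is uncertain.

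The order of the 2 lines thus depended on the scale. On log2(FPKM + 1) the andrographis difference was larger in HCT116 than in SW480 cells by 1.93 (SE 0.19) for CYP4F3 and by 2.26 (SE 0.23) for CYP4F11. A pseudocount of 0.1 gave response differences of 0.70 and 0.43, and one of 10 gave 1.03 and 1.96. As a plain ratio of reads, the larger value was that of SW480 cells for both genes. For CYP4F3 the SW480 interval of 22.8 to 78.8, counting error only, held the HCT116 ratio of 25.4, so the order was not resolved. No test was run on either, since HCT116 values chose the genes.

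**Figure D1:**
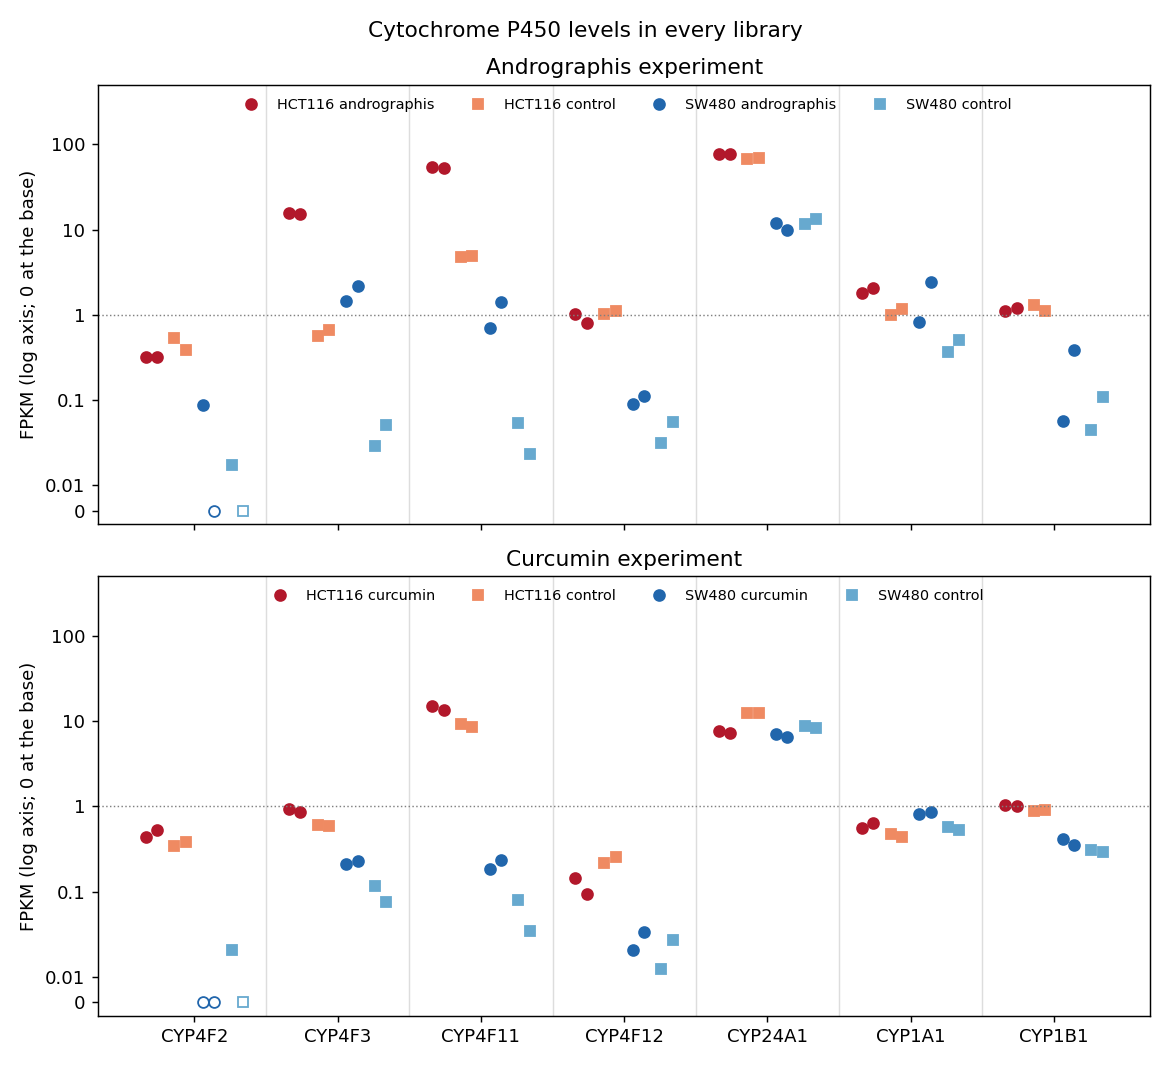
FPKM on a log axis of the 7 cytochrome P450 genes in all 16 libraries, andrographis experiment above and curcumin experiment below, with circles for treated and squares for control libraries and values of 0 drawn open at the base. The dotted line is 1 FPKM. CYP4F3 and CYP4F11 stand out in the andrographis panel, at 15.8 and 15.4 and at 54.2 and 53.3 FPKM in treated HCT116 cells against 0.567 and 0.668 and 4.75 and 4.97 FPKM in controls.

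The neighbours of CYP4F3 and CYP4F11 in the same cluster were not called with andrographis where they were tested. CYP4F12 lies between them and was at 1.02 and 0.793 FPKM in andrographis-treated HCT116 cells, against 1.03 and 1.10 FPKM in HCT116 controls. Its difference was -0.12 (95% interval -0.33 to 0.09, adjusted p = 0.48). In SW480 cells CYP4F12 was at 0.0903 and 0.113 FPKM with andrographis, against 0.0317 and 0.0548 FPKM in controls, a difference of 0.08 (-0.13 to 0.28, adjusted p = 0.635). These SW480 groups did not overlap, and 21 against 12 reads gave a read-rate ratio of 2.13 (95% exact interval 1.0 to 4.75, counting error only). The 2 responses of CYP4F12 differed by -0.20 between HCT116 and SW480 cells (-0.49 to 0.09, adjusted p = 0.427).

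CYP4F2, also between them, stayed below the filter in both experiments and was not tested. It was at 0.320 and 0.320 FPKM in andrographis-treated HCT116 cells, against 0.533 and 0.391 FPKM in HCT116 controls, or 55 against 62 reads. In SW480 cells it had 7 reads in 1 of 2 andrographis libraries and none in the other, against 1 read in the 2 controls together. CYP4F22, an omega-hydroxylase of very long chain fatty acids in the skin barrier, is at the far end of the cluster. It was at 2.50 and 3.29 FPKM in andrographis-treated HCT116 cells, against 3.53 and 2.90 FPKM in controls, with overlapping groups. CYP4F8 did not exceed 0.0247 FPKM in any of the 16 libraries.

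**Figure D2:**
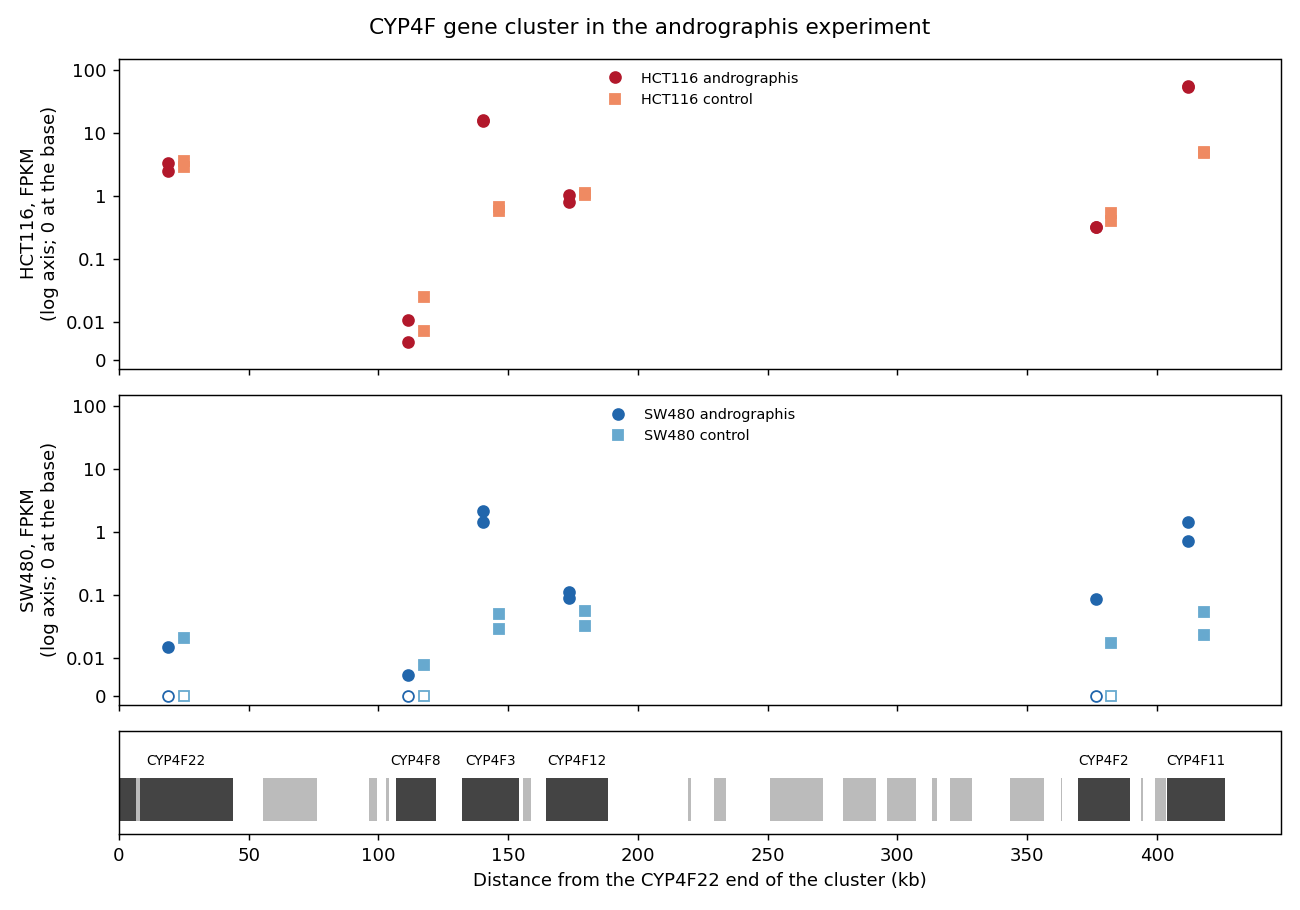
FPKM on a log axis of the 6 protein-coding CYP4F genes along their cluster in the andrographis experiment, HCT116 cells above and SW480 cells in the middle, with circles for andrographis and squares for control libraries. The lowest strip shows the genes to scale in kb from the CYP4F22 end, CYP4F genes dark and other annotated genes grey. CYP4F3 and CYP4F11 are apart in treated and control cells of both lines, while CYP4F12, between them, was at 1.02 and 0.793 against 1.03 and 1.10 FPKM in HCT116 cells.

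The balance of the pair also differed in andrographis-treated HCT116 cells. The ratio of CYP4F3 to CYP4F11 FPKM was 0.292 and 0.288 with andrographis, against 0.119 and 0.135 in HCT116 controls. In SW480 cells the ratio was 2.06 and 1.53 with andrographis and 0.547 and 2.19 in controls, whose few reads left the groups overlapping. CYP4F11 supplied 76.0 and 76.4% of the summed FPKM of the 4 CYP4F genes in andrographis-treated HCT116 cells and 69.0 and 69.7% in HCT116 controls.

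With curcumin both genes of this pair were also higher in HCT116 cells, by smaller factors. CYP4F11 was at 14.98 and 13.43 FPKM in curcumin-treated HCT116 cells, against 9.24 and 8.47 FPKM in HCT116 controls, a ratio of mean FPKM of 1.60 and a difference of 0.62 (SE 0.08). CYP4F3 was at 0.922 and 0.857 FPKM with curcumin, against 0.602 and 0.592 FPKM in HCT116 controls, a ratio of 1.49. The groups did not overlap for either gene, which 2 libraries per group often give by order alone. Its share over all genes was not counted, and neither value was tested. The ratio of CYP4F3 to CYP4F11 was 0.0615 and 0.0638 in curcumin-treated HCT116 cells and 0.0652 and 0.0699 in HCT116 controls, so both genes were higher by nearly the same factor.

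In SW480 cells CYP4F11 was at 0.185 and 0.236 FPKM with curcumin, against 0.0792 and 0.0343 FPKM in controls. The difference of 0.20 did not pass the test (95% interval -0.00 to 0.39, limma adjusted p = 0.414), and it rests on 29 reads in treated and 8 in control cells. CYP4F3, below the filter, was at 0.212 and 0.227 FPKM in curcumin-treated SW480 cells, against 0.116 and 0.0751 FPKM in SW480 controls, or 40 against 19 reads. No gene of the 3 tested was called in SW480 cells with curcumin, where 0.306% of 16341 genes were called. CYP24A1 alone had an unadjusted p below the threshold, as did 12.2% of all genes.

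CYP4F12 and CYP4F2 were below the filter in the curcumin experiment. CYP4F12 was at 0.145 and 0.0948 FPKM in curcumin-treated HCT116 cells, against 0.218 and 0.254 FPKM in HCT116 controls, or 21 against 46 reads, a read-rate ratio of 0.55 (95% exact interval 0.312 to 0.94, counting error only). CYP4F2 was at 0.432 and 0.530 FPKM with curcumin, against 0.342 and 0.381 FPKM in HCT116 controls, or 46 against 43 reads. In SW480 cells CYP4F12 had 5 reads with curcumin and 4 in controls. CYP4F2 had none with curcumin and 1 in controls, which is too few to show a difference.

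**Figure D3:**
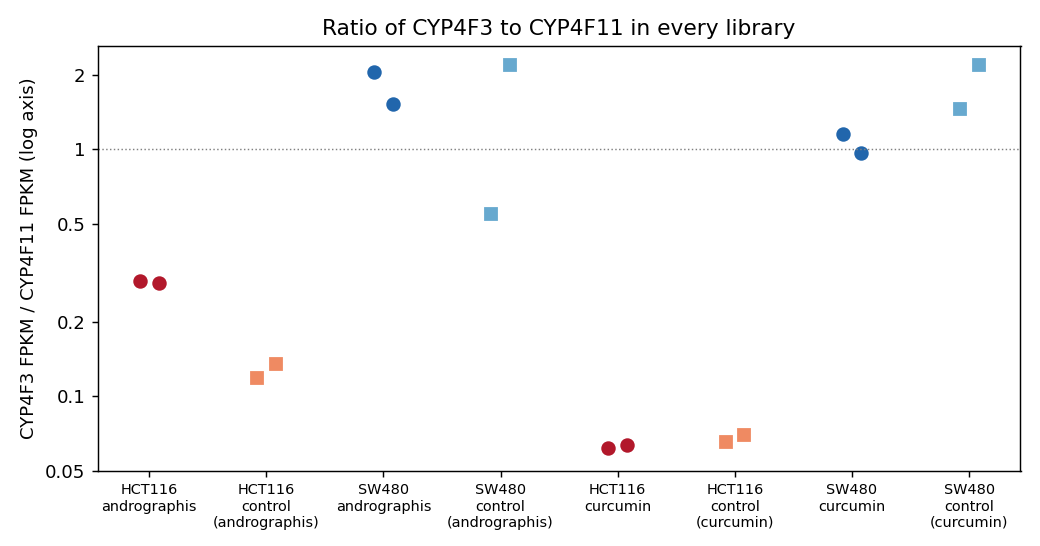
Ratio of CYP4F3 FPKM to CYP4F11 FPKM on a log axis in each of the 16 libraries, with circles for treated and squares for control libraries. The ratio was 0.292 and 0.288 in andrographis-treated HCT116 cells and 0.119 and 0.135 in their controls, and 0.0615 and 0.0638 in curcumin-treated HCT116 cells and 0.0652 and 0.0699 in theirs.

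CYP24A1 was the most abundant of the 7 genes in 7 of 8 groups and was lower with curcumin in both lines. In curcumin-treated HCT116 cells it was at 7.58 and 7.24 FPKM, against 12.4 and 12.5 FPKM in HCT116 controls. The ratio of mean FPKM was 0.594 and the difference -0.68 (SE 0.06), a value that chose the gene. In SW480 cells CYP24A1 was at 7.04 and 6.59 FPKM with curcumin, against 8.74 and 8.26 FPKM in SW480 controls. The treated libraries were both lower, with a difference of -0.28 (95% interval -0.42 to -0.14, unadjusted p = 0.00232), but it did not pass the limma test after adjustment (adjusted p = 0.128).

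With andrographis, CYP24A1 was at 77.3 and 77.0 FPKM in HCT116 cells, against 67.4 and 69.3 FPKM in HCT116 controls, a ratio of 1.13. In SW480 cells it was at 11.9 and 9.91 FPKM with andrographis, against 11.8 and 13.4 FPKM in SW480 controls. The groups overlapped, and the difference of -0.20 did not pass (-0.48 to 0.09, adjusted p = 0.363).

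CYP1A1 was low everywhere and was called in no treated against control comparison, being untested with curcumin. In SW480 cells it was at 0.821 and 2.43 FPKM with andrographis, against 0.368 and 0.507 FPKM in SW480 controls. The 2 treated libraries lay far apart, and the difference of 0.80 (SE 0.26) had an unadjusted p of 0.0196 and an adjusted p of 0.116. It passed the threshold of the study's methods, an unadjusted p below 0.05 with a log2 fold change beyond 0.5, as did 11.8% of all genes tested. Without SW480 andrographis replicate 1, the lower of the pair, the difference was 1.25 (adjusted p = 0.00609), and without replicate 2 it was 0.34 (0.126).

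In HCT116 cells CYP1A1 was at 1.83 and 2.07 FPKM with andrographis, against 0.996 and 1.16 FPKM in HCT116 controls. The difference of 0.51 did not pass (-0.12 to 1.13, adjusted p = 0.307). It passed without SW480 andrographis replicate 1 (adjusted p = 0.0265) or 2 (0.0259), or with the 4 HCT116 libraries alone (0.00501). None of the 3 genes tested in this contrast was called, CYP4F12, CYP1A1 and CYP1B1, where 6.82% of all genes were. None of the 3 had an unadjusted p below 0.05, as 23.7% of all genes did. The CYP1A1 responses of the lines differed by -0.29 between HCT116 and SW480 cells (-1.18 to 0.60, adjusted p = 0.725). Without SW480 andrographis replicate 1 this became -0.75 (adjusted p = 0.034), and without replicate 2 it was 0.17 (0.549).

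With curcumin, CYP1A1 was below the filter and untested. It was at 0.823 and 0.863 FPKM in curcumin-treated SW480 cells, against 0.570 and 0.534 FPKM in SW480 controls. In HCT116 cells it was at 0.564 and 0.632 FPKM with curcumin, against 0.473 and 0.435 FPKM in controls. The groups did not overlap in either line. With 2 libraries per group this occurs often by order alone, and its share over all genes was not counted. The read-rate ratios were 1.55 (95% exact interval 1.12 to 2.15) in SW480 and 1.29 (0.887 to 1.87) in HCT116 cells, counting error only.

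CYP1B1 was called in none of the 4 treated against control comparisons. It was at 1.10 and 1.21 FPKM in andrographis-treated HCT116 cells, against 1.30 and 1.10 FPKM in controls (difference -0.03, 95% interval -0.35 to 0.29, adjusted p = 0.941). In SW480 cells it was at 0.0576 and 0.383 FPKM with andrographis, against 0.0450 and 0.109 FPKM in controls (0.17, -0.15 to 0.49, adjusted p = 0.487). The groups overlapped, and 45 against 26 reads gave a read-rate ratio of 2.11 (95% exact interval 1.27 to 3.56, counting error only). As for CYP1A1, SW480 andrographis replicate 2 was the high library. Curcumin-treated HCT116 cells had 1.05 and 1.00 FPKM, against 0.885 and 0.912 FPKM in HCT116 controls (0.09, -0.19 to 0.37, adjusted p = 0.838), and 0.171% of all genes were called there. Curcumin-treated SW480 cells had 0.409 and 0.354 FPKM, against 0.309 and 0.292 FPKM in SW480 controls (0.09, -0.19 to 0.37, adjusted p = 0.857). In SW480 cells no gene of the 3 tested passed the study's threshold with curcumin either, as 1.95% of all genes did.

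The difference between the lines in response to treatment called none of the genes tested. With andrographis these were CYP4F12, CYP1A1 and CYP1B1, where 2.36% of all genes were called and 20% had an unadjusted p below 0.05. The CYP1B1 responses differed by -0.20 between HCT116 and SW480 cells (-0.65 to 0.25, adjusted p = 0.627). With curcumin only CYP1B1 was tested, with a difference of 0.01 (-0.39 to 0.40, adjusted p = 0.999). There limma called 0% of all genes, and 1341 of them had an unadjusted p below 0.05.

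**Figure D4:**
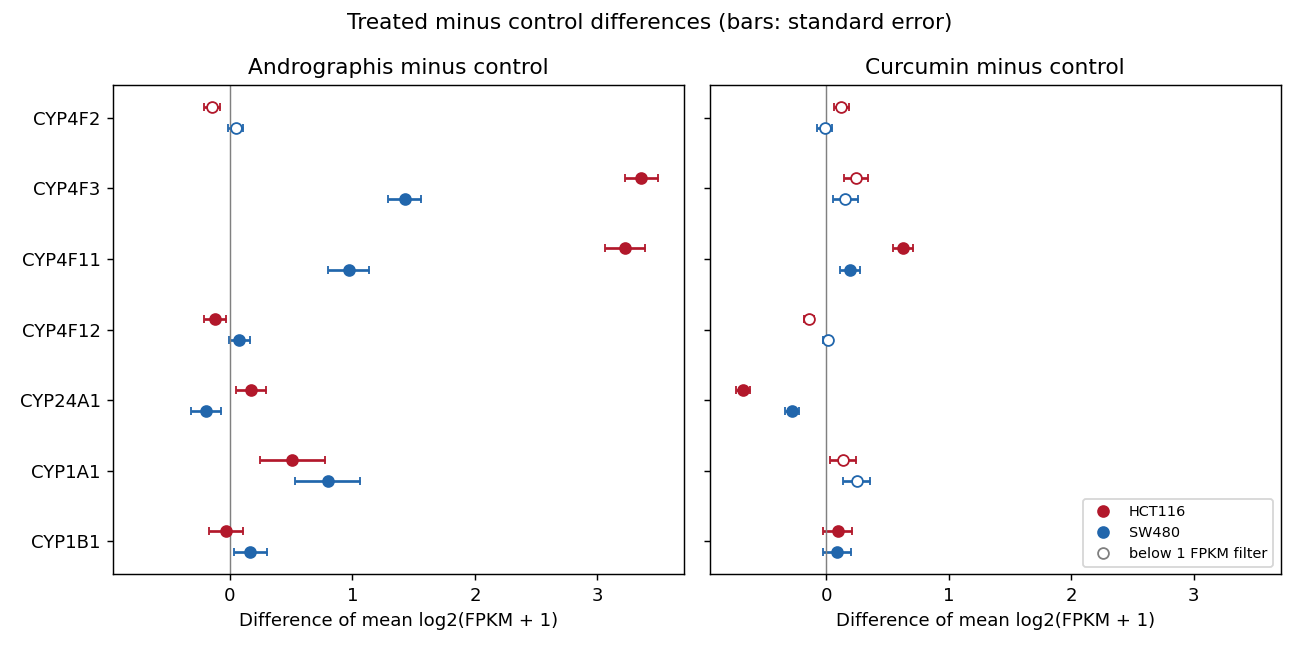
Treated minus control differences of mean log2(FPKM + 1) for the 7 genes, andrographis on the left and curcumin on the right, HCT116 cells in red and SW480 cells in blue, with bars for the standard error and open symbols for genes below the filter. CYP4F3 and CYP4F11 are at 3.36 and 3.23 in HCT116 and at 1.43 and 0.97 in SW480 cells with andrographis, and CYP24A1 is at -0.68 and -0.28 with curcumin.

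The lines themselves differed in these genes before treatment. CYP1B1 was higher in HCT116 controls, at 1.30 and 1.10 FPKM against 0.0450 and 0.109 FPKM in SW480 controls of the andrographis experiment (1.03, SE 0.14, adjusted p = 0.000546). In the curcumin experiment it was at 0.885 and 0.912 FPKM in HCT116 controls, against 0.309 and 0.292 FPKM in SW480 controls (0.55, SE 0.12, adjusted p = 0.0064). CYP4F12 was at 1.03 and 1.10 FPKM in HCT116 controls of the andrographis experiment, against 0.0317 and 0.0548 FPKM in SW480 controls (0.99, SE 0.09, adjusted p = 7.45e-05). CYP1A1 was at 0.996 and 1.16 FPKM in HCT116 controls there, against 0.368 and 0.507 FPKM in SW480 controls, and did not pass (0.53, -0.10 to 1.16, adjusted p = 0.123). It passed without SW480 andrographis replicate 1 (adjusted p = 0.00383) or 2 (0.00367). In the curcumin experiment CYP1A1 was the lower in HCT116 controls, at 0.473 and 0.435 FPKM against 0.570 and 0.534 FPKM in SW480 controls. The lines differ widely, with 60.7% of all genes called between controls in the andrographis experiment and 62.7% in the curcumin experiment. CYP4F12 and CYP1B1 passed the filter only through HCT116 libraries, the line in which they were high, CYP1B1 in the curcumin experiment only through the curcumin-treated ones, so their calls between the lines are no support for a difference of these genes as a group.

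By read-rate ratio, CYP4F11 had the largest gap of the 7 genes between the untreated lines. It was at 4.75 and 4.97 FPKM in HCT116 controls of the andrographis experiment, against 0.0535 and 0.0231 FPKM in SW480 controls, and at 9.24 and 8.47 against 0.0792 and 0.0343 FPKM in the curcumin experiment. The read-rate ratios were 142 and 167, resting on 7 and 8 SW480 reads. CYP4F3 was 14.4 times and 6.49 times higher in HCT116 controls by the same measure, resting on 12 and 19 SW480 reads. No interval is given for either gene, since HCT116 values chose them. CYP4F2 had 62 and 43 reads in HCT116 controls and 1 read in the SW480 controls of each experiment. Its ratios were 73.6 (95% exact interval 12.7 to 2960, counting error only) and 41.7 (7.1 to 1690). All 4 CYP4F genes thus had higher levels in HCT116 than in SW480 controls in both experiments. Of all genes tested, 37.7% were called higher in HCT116 controls in the andrographis experiment and 29.7% in the curcumin experiment. CYP4F3 and CYP4F11 were chosen by HCT116 values, and CYP4F2 rests on 1 SW480 read per experiment. The count is therefore no support for a difference of these genes as a group. CYP24A1 was at 67.4 and 69.3 FPKM in HCT116 controls, against 11.8 and 13.4 FPKM in SW480 controls of the andrographis experiment, a ratio of 5.41. In the curcumin experiment it was at 12.4 and 12.5 FPKM in HCT116 controls, against 8.74 and 8.26 FPKM in SW480 controls, a ratio of 1.47. The 2 tables were normalised separately, but each ratio was taken within its own table.

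The order of levels changed with treatment. In HCT116 controls of the andrographis experiment CYP24A1 led (mean 68.4 FPKM), followed by CYP4F11 (4.86), CYP1B1 (1.20), CYP1A1 (1.08), CYP4F12 (1.07), CYP4F3 (0.618) and CYP4F2 (0.462). CYP1B1, CYP1A1 and CYP4F12 overlapped in that order. In andrographis-treated HCT116 cells CYP4F3 came next, at a mean of 15.6 FPKM, after CYP24A1 (77.1) and CYP4F11 (53.8). In curcumin-treated HCT116 cells CYP4F11 led (14.2 FPKM), ahead of CYP24A1 (7.41), the reverse of their HCT116 controls (8.85 and 12.5 FPKM). In andrographis-treated SW480 cells CYP24A1 led (10.9 FPKM), and CYP4F3 (1.82), CYP1A1 (1.62) and CYP4F11 (1.06) followed with overlapping ranges.

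A list of other cytochrome P450 genes held 50 genes, 14 of them tested in the andrographis experiment and 12 in the curcumin experiment. With andrographis, 1 of the 14 rose in HCT116 cells and 3 fell, where 6.82% of all genes were called. CYP11A1, the first enzyme of steroid synthesis, rose by 0.64 (adjusted p = 0.0223) and was at 1.27 and 1.13 FPKM with andrographis, against 0.563 and 0.282 FPKM in controls. CYP2A6, a nicotine oxidase, fell by 0.68 (0.037), CYP2U1 by 0.58 (0.0454) and CYP4V2, a fatty acid hydroxylase of the eye, by 0.57 (0.0185). In SW480 cells none of the 14 rose and CYP4V2 fell by 0.50 (0.0275), where 7.28% of all genes were called. In this experiment CYP11A1 reached 1 FPKM only in andrographis-treated HCT116 libraries, and CYP2U1 and CYP4V2 only in control libraries. These genes passed the filter only through groups where they were high, so the counts are no support for a change of the list as a group. With curcumin none of 12 was called in either line. Medians of the list were -0.14 in both andrographis contrasts, against -0.02 in HCT116 and -0.00 in SW480 cells over all genes tested. With curcumin they were -0.06 in HCT116 and -0.04 in SW480 cells, against -0.00 and -0.02 over all genes. Of 9 tested genes listed with the electron supply of the enzymes, PGRMC1 and PGRMC2 among them, only the mitochondrial FDXR rose. It rose by 0.78 in andrographis-treated HCT116 cells (adjusted p = 0.0369).

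Aryl hydrocarbon receptor genes were tested beside CYP1A1 and CYP1B1. The receptor gene AHR was at 5.36 and 5.26 FPKM in curcumin-treated HCT116 cells, against 5.85 and 6.33 FPKM in HCT116 controls (adjusted p = 0.431). In SW480 cells AHR was at 4.12 and 3.90 FPKM with curcumin, against 4.89 and 4.36 FPKM in SW480 controls (0.427). In the andrographis experiment AHR stayed below the filter, with at most 0.504 FPKM in any library. NQO1, a quinone reductase that is also a target of NRF2, was the only gene of 10 tested to pass with curcumin. It rose by 1.04 in HCT116 (adjusted p = 0.0302) and 0.74 in SW480 cells (0.0495). Neither call held with a replicate block or with the 4 libraries of the contrast alone. With andrographis, of 9 tested, NQO1 (1.55) and TIPARP (0.75) rose and LRAT fell by 0.49 in HCT116 cells, while NQO1 (1.43) and ALDH3A1 (1.46) rose in SW480 cells. LRAT reached 1 FPKM there only in HCT116 controls, so it passed the filter only through the group where it was high. List medians were 0.22 in HCT116 and 0.28 in SW480 cells with andrographis, and 0.05 and 0.06 with curcumin. Of all genes tested, 6.82% were called in HCT116 and 7.28% in SW480 cells with andrographis, and 0.171% and 0.306% with curcumin.

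Of 9 tested genes of vitamin D activation, transport and response, none was called with curcumin in either line. The vitamin D receptor VDR was at 22.3 and 20.8 FPKM in curcumin-treated SW480 cells, against 25.2 and 25.6 FPKM in SW480 controls (difference -0.23, adjusted p = 0.261). In HCT116 cells it was at 3.67 and 3.20 FPKM with curcumin, against 3.42 and 3.65 FPKM in controls (-0.03, 0.916). With andrographis VDR rose in SW480 cells, to 18.2 and 21.1 FPKM, against 11.3 and 10.7 FPKM in SW480 controls (0.78, adjusted p = 0.0214). In the same cells LRP2, a receptor that takes up carried vitamin D, fell by 0.89 (0.0107). In HCT116 cells CUBN, its partner, fell by 0.56 (0.012), and VDR was at 3.94 and 4.66 FPKM with andrographis, against 4.93 and 4.33 FPKM in controls (-0.09, 0.761). HCT116 controls had less VDR than SW480 controls in both experiments, by -1.09 (adjusted p = 0.000291) in the andrographis and -2.54 (7.59e-07) in the curcumin experiment, while CYP24A1 was the higher in HCT116 controls. List medians were -0.01 in HCT116 and -0.09 in SW480 cells with andrographis, and -0.01 and -0.08 with curcumin. The share called over all genes tested was 6.82% in HCT116 and 7.28% in SW480 cells with andrographis, and 0.171% and 0.306% with curcumin.

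Around CYP4F3, 11 genes of leukotriene and arachidonate metabolism were tested with andrographis and 10 with curcumin. The leukotriene A4 hydrolase LTA4H, which makes the substrate of CYP4F3, was at 31.5 and 31.3 FPKM in andrographis-treated HCT116 cells, against 39.0 and 37.7 FPKM in HCT116 controls (adjusted p = 0.174). ALOX5, of the same list, was below the filter, with at most 0.677 FPKM in any library. Whether these cells made leukotriene B4 was not measured. With andrographis ALDH3A2, a fatty aldehyde dehydrogenase, rose by 0.81 in HCT116 cells (0.0224), and EPHX1, an epoxide hydrolase, rose by 0.83 in SW480 cells (0.0258). None was called with curcumin. Thus 1 of 11 was called in each line with andrographis, near the share over all genes tested, 6.82% in HCT116 and 7.28% in SW480 cells. With curcumin that share was 0.171% and 0.306%. List medians were 0 in HCT116 and 0.12 in SW480 cells with andrographis, and 0.06 and 0.04 with curcumin. Leukocyte markers, 6 in all, summed to 1.77 to 1.83 FPKM in andrographis-treated HCT116 cells, against 1.42 to 1.73 FPKM in HCT116 controls. They summed to 0.74 to 0.98 FPKM in andrographis-treated SW480 cells, against 0.72 to 0.89 FPKM in SW480 controls. Hepatocyte markers, 5 in all, summed to 1.62 to 1.95 FPKM in andrographis-treated HCT116 cells, against 2.15 to 2.96 FPKM in controls, and to 29.24 to 34.19 against 27.05 to 34.37 FPKM in SW480 cells, SERPINA1 being the only one at 1 FPKM in both libraries of a group. TTR was listed at 0 in all 4 groups, and CD3E, a T cell marker, in 3 of them. The summed level of the 8 epithelial markers was 1264.53 to 1278.62 FPKM in andrographis-treated HCT116 cells against 927.14 to 988.93 FPKM in HCT116 controls, and 1110.8 to 1218.99 against 1507.41 to 1864.16 FPKM in SW480 cells. The HCT116 sum was carried by KRT19, at 794 and 796 FPKM with andrographis against 432 and 479 FPKM in controls. CDH1 was the lower with andrographis, at 20.7 and 20.2 against 29.5 and 28.7 FPKM, as were KRT18, at 178 and 173 against 203 and 208 FPKM, and VIL1. Their part in the results was not tested.

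Beside the CYP4F genes, 9 sentinel targets of NRF2, the transcription factor of the antioxidant response, were counted. With andrographis 8 of 9 rose in each line, with medians of 2.15 in HCT116 and 1.78 in SW480 cells. Of all genes tested, 2.87% in HCT116 and 3.08% in SW480 cells were called higher, and the medians were -0.02 and -0.00. HMOX1, which degrades haem, was at 81.2 and 84.8 FPKM in andrographis-treated HCT116 cells, against 7.80 and 7.12 FPKM in HCT116 controls (3.31, adjusted p = 0.00016). AKR1B10, an aldo-keto reductase, was at 8.65 and 8.44 FPKM, against 0.0981 and 0.0854 FPKM (3.13, 0.000153). AKR1B10 reached 1 FPKM only in andrographis-treated HCT116 libraries, and AKR1C1 only in andrographis-treated SW480 libraries. Both passed the filter only through treated libraries where they were high, so their calls add no support for a rise of the list. With curcumin 2 of 6 tested rose in each line, NQO1 and GCLM in HCT116 and NQO1 and TXNRD1 in SW480 cells, with medians of 0.45 and 0.42. The limma adjusted p was 0.0456 for GCLM and 0.0338 for TXNRD1. None of these curcumin calls held with a replicate block or with the 4 libraries of the contrast alone. There 0.104% of all genes tested were called higher in HCT116 and 0.129% in SW480 cells.

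Genes with the most similar pattern were sought by Pearson r of log2(FPKM + 1) over the 8 libraries of an experiment, which fall into only 4 groups, so a shared line difference alone gives a high r. In the andrographis experiment, over 11866 protein-coding genes, CYP4F3 was most like HPS5 (r = 0.991), AKR1B10 (0.990) and AP1S1 (0.990). CYP4F11 was most like GRAMD1B (0.993), ITGAX (0.991) and ATG9B (0.989), and CYP24A1 most like SLC44A3, PPM1J and HSH2D (all 0.999).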

How the data were processed

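RNA of 16 libraries was sequenced by the authors, and 1 table per experiment was deposited with log2 values, log2(FPKM + 1), for 60560 genes, 40583 of them with a symbol. The unit was inferred: in low microRNA genes the linear values were whole multiples of 1 step per gene and library, as FPKM values are, and the steps gave the depth. Per the labels, the authors' processing notes name STAR 2.7.8a, DESeq2, Partek 10.0.22.0121 and bcl2fastq 2.20.0.422 and the builds mm10 and GRCh38, without roles. The counting step and the annotation are not given in the sources used here.

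Each experiment was fitted separately with limma 3.58.1 in R 4.3.3 (lmFit, eBayes with trend, 4 group means) on genes that reached 1 FPKM in 2 or more of the libraries, 16341 with curcumin and 12811 with andrographis, Benjamini-Hochberg adjusted over all of them and called at an adjusted p under 0.05. Of the 7 genes, CYP4F11, CYP24A1 and CYP1B1 passed this filter with curcumin, and all but CYP4F2 with andrographis. Reads were recovered for the 7 genes as whole multiples within 0.001 of a read. Read-rate ratios carry exact 95% binomial intervals for the 2 libraries of a group together, except those of the chosen genes in contrasts with HCT116 libraries. Since the tables hold FPKM, no count test was run. The fit was tested on simulated data, with changes planted only in genes well expressed in the controls of both lines. It therefore does not cover genes as low as CYP4F3 and CYP4F11 in SW480 controls. Python 3.11.15, pandas 2.3.3, scipy 1.17.1 and matplotlib 3.10.9 were used elsewhere.

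All 7 genes are described. Of a gene list at most 4 called members are named, those with the largest differences. AHR, VDR, LTA4H, ALOX5, CYP4F22 and CYP4F8 are named outside that rule, for their role or position, after their values were seen. The genes and lists were chosen with earlier results of these data known. Sequences and positions are from RefSeq, GRCh38.p14; promoters of CYP4F12, CYP24A1 and CYP1B1 were not used here. Alternatives were pseudocounts of 0.1 and 10, no filter or one at 10 FPKM, median scaling, limma without trend, protein-coding rows only, a replicate block, the 4 libraries of a contrast alone, and each library left out. The genes of most similar pattern in the curcumin experiment are not reported here.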

Additional observations from a re-analysis of the deposited data

How the results depend on the processing

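With 2 libraries per group and few reads in SW480 controls, calls of single genes moved with small changes. Of 566 single-gene values under the alternatives, none reversed a called direction. In SW480 cells with andrographis the 2 calls (CYP4F3 and CYP4F11) became 1 with a pseudocount of 10, with no filter and with only the 4 libraries of the comparison, and ranged from 1 to 3 when a library was left out. In HCT116 cells with andrographis the 0 calls became 1 (CYP1A1) with only those 4 libraries, and were 0 to 1 with a library left out, as for the difference between the lines. Between controls of the andrographis experiment the 2 calls became 0 with a filter at 10 FPKM and 1 with libraries scaled to the same median, where genes left the tested set, and were 2 to 3 with a library left out. Between controls of the curcumin experiment the 1 call became 3 with no filter (CYP4F2 and CYP4F12 were added), and 0 with a filter at 10 FPKM and with only the 4 libraries, and 0 to 1 with a library left out, since CYP1B1 reaches 1 FPKM only in curcumin-treated HCT116 cells. The 2 replicate numbers were not shown to pair the libraries: deviations of same-numbered libraries correlated at 0.035 in SW480 and 0.197 in HCT116 cells with curcumin, and at 0.562 and -0.001 with andrographis. With the replicate block the calls became 3 in SW480 cells with andrographis (CYP1A1, adjusted p = 0.0387, was added) and 3 between andrographis controls (CYP1A1, 0.0413), and no other count of called genes of the 7 changed. Over all genes the block moved the SW480 andrographis calls to 2144, against 933 without it, the HCT116 andrographis calls to 1619 against 874, the line difference with andrographis to 729 against 302, and the curcumin calls to 0 in both lines, against 28 in HCT116 and 50 in SW480 cells. Other settings also moved the counts over all genes. With no filter they were 329 in SW480 cells with andrographis, 140 for the line difference with andrographis, 93 in HCT116 cells with curcumin and 0 in SW480 cells with curcumin. With only the 4 libraries they were 5526 in HCT116 and 37 in SW480 cells with andrographis and 0 in both lines with curcumin. A pseudocount of 0.1 gave 405 calls in HCT116 cells and 77 for the line difference with andrographis, and 8 in HCT116 and 19 in SW480 cells with curcumin. A pseudocount of 10 gave 1399, 588, 79 and 188 in the same order, and 28 for the line difference with curcumin. A filter at 10 FPKM gave 428 in HCT116 cells and 169 for the line difference with andrographis, 125 in HCT116 and 156 in SW480 cells and 11 for the line difference with curcumin, and 3522 and 4201 between the controls of the andrographis and curcumin experiments. With protein-coding rows only, curcumin gave 198 calls in HCT116 and 302 in SW480 cells and 40 for the line difference, and limma without trend gave 5, 22 and 1. With a library left out, calls were 44 to 1945 in HCT116 and 108 to 2956 in SW480 cells with andrographis (the lowest without control replicate 2 of that line), 3 to 1828 for their difference, and 0 to 4 in HCT116 and 0 to 17 in SW480 cells with curcumin. The cause was not tested.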
